A study of Caenorhabditis elegans with 6 samples.

Results

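The 6 vitellogenin genes of *C. elegans*, *vit-1* to *vit-6*, and *rme-2*, the gene of the yolk receptor, were examined in the RNA-seq of embryos. They were taken by gene symbol from the deposited table, which held all 7 among 19933 genes. The study compared wild-type embryos (strain N2) laid by hermaphrodites fed bacteria with the empty vector (EV) with wild-type embryos laid by hermaphrodites fed bacteria expressing *pri-1* dsRNA, which targets a primase subunit of DNA replication. In both groups, synchronized L1 larvae were kept at 20°C for 96 h, and total RNA was taken from eggs left on the plates after the worms had been rinsed away. Each group had 3 libraries, described as separate experiments, and p-values measure the spread between them.

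Vitellogenins are large lipoproteins that carry lipid and protein into the egg. In *C. elegans* they are made in the intestine of the adult hermaphrodite, secreted into the body cavity and taken up by growing oocytes through RME-2, a member of the low-density lipoprotein receptor family that is made in oocytes. An embryo therefore receives yolk as protein from its mother, and the genes that encode yolk are known as some of the most active genes of the adult intestine. *vit-1* and *vit-2* form one subgroup of the family and *vit-3*, *vit-4* and *vit-5* another, while *vit-6* encodes a more distant precursor that is cut into smaller yolk proteins.

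In WBcel235, 5 of the members lie on chromosome X. These are *vit-1* (WBGene00006925, 7727889 to 7733168, plus strand), *vit-2* (WBGene00006926, 5101042 to 5106169, plus strand), *vit-3* (WBGene00006927, 3567355 to 3572549, minus strand), *vit-4* (WBGene00006928, 3558769 to 3563965, minus strand) and *vit-5* (WBGene00006929, 3403471 to 3408603, plus strand). *vit-3* and *vit-4* are neighbours on the same strand with 3389 bases between them. *vit-6* (WBGene00006930, 8261157 to 8266459, plus strand) and *rme-2* (WBGene00004374, 5470026 to 5473174, plus strand) lie on chromosome IV. The exons of the vitellogenin genes cover 4870 to 5088 bases and those of *rme-2* cover 2867 bases.

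The values are CPM, the estimated reads of a gene per 1000000 reads of its library. The libraries held 122751265 to 162069397 reads, as recovered from the steps of the low CPM values, so that each member was measured on 91.1 to 22048 estimated reads and counting error was small beside the spread between libraries. The estimated reads of *vit-6* and *rme-2* were whole numbers (within 0.01 read) in 6 of 6 libraries. Those of *vit-3* and *vit-5* were whole in 0 of 6 libraries, those of *vit-4* in 1 and those of *vit-1* and *vit-2* in 2. A fractional estimate arises when reads match more than 1 transcript and are divided between them, so the values of *vit-1* to *vit-5* depend partly on that division, and their sums were analysed as well. The target of the RNAi, *pri-1*, had levels of 41.2, 47.2 and 26.9 CPM in EV replicates 1, 2 and 3 and 28.6, 28.7 and 24.3 CPM in *pri-1* RNAi replicates 1, 2 and 3, and limma gave -0.46 ± 0.29 (standard error) for the log2 fold change, with an adjusted p-value of 0.285. Of 10 genes of zygotic embryonic transcription, a list chosen after other values had been seen, 7 had at least 0.5 CPM in every library. The summed level of the list was 395 to 587 CPM in EV and 411 to 585 CPM in *pri-1* RNAi libraries. This sum does not measure the stage of the embryos. The study states that embryos of mothers fed *pri-1* RNAi arrest early, before morphogenesis, and do not hatch.

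Vitellogenin RNA was far more uneven between the EV libraries than between the groups. EV replicate 1 held the highest level of each of the 7 members, EV replicate 3 came next for each vitellogenin gene, and EV replicate 2 had a level near or below those of the *pri-1* RNAi libraries.
*vit-2*, which encodes a major yolk protein, had levels of 177, 3.50 and 22.96 CPM in EV replicates 1, 2 and 3 and 3.73, 1.94 and 14.9 CPM in *pri-1* RNAi replicates 1, 2 and 3. *vit-6* had 179.6, 3.28 and 22.7 CPM in EV and 4.62, 2.43 and 15.1 CPM in *pri-1* RNAi embryos. The order of the 6 libraries was thus the same for both genes, and the groups overlapped.
*vit-5* had 156, 2.16 and 21.9 CPM in EV and 3.41, 1.64 and 14.4 CPM in *pri-1* RNAi embryos. *vit-3* had 123, 1.37 and 16.2 CPM in EV and 6.04, 6.51 and 10.7 CPM in *pri-1* RNAi embryos. For *vit-3*, EV replicate 2 was the lowest library and each *pri-1* RNAi library lay above it.
*vit-4* had 96.1, 1.03 and 12.6 CPM in EV and 1.29, 0.562 and 2.78 CPM in *pri-1* RNAi embryos. *vit-1* had 50.6, 1.68 and 6.25 CPM in EV and 1.96, 3.62 and 3.44 CPM in *pri-1* RNAi embryos. The groups overlapped for both, in that EV replicate 2 lay below at least 1 *pri-1* RNAi library.
*rme-2* had 19.7, 2.49 and 4.44 CPM in EV and 7.68, 7.77 and 8.90 CPM in *pri-1* RNAi embryos. Its 3 *pri-1* RNAi libraries lay close together, between EV replicate 1 above and EV replicates 2 and 3 below.

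**Figure D1:**
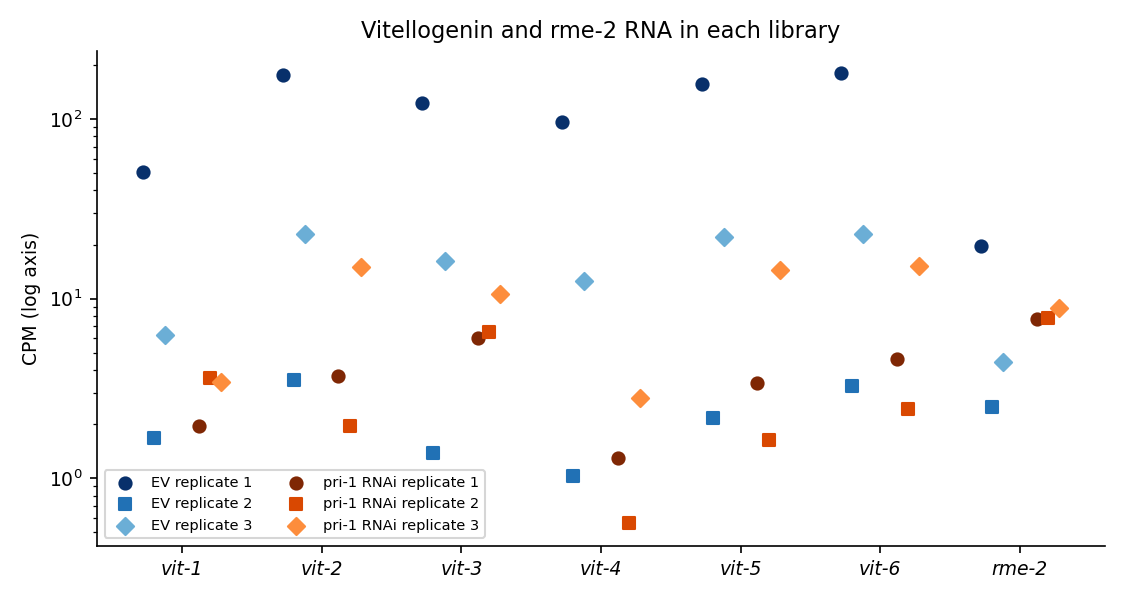
CPM (log axis) of the 6 vitellogenin genes and *rme-2* in each of the 3 EV (blue) and 3 *pri-1* RNAi (orange) libraries, 1 point per library. EV replicate 1 is the highest point for each gene. The other libraries of both groups overlap for the vitellogenins, while for *rme-2* the *pri-1* RNAi libraries (7.68 to 8.90 CPM) lie above EV replicates 2 and 3.

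The height of EV replicate 1 was measured for all genes as the ratio of its CPM to the highest of the 5 other libraries. This ratio was between 7.10 (*vit-5*) and 8.11 (*vit-1*) for the vitellogenin genes, with 7.90 for *vit-6*, 7.69 for *vit-2*, 7.64 for *vit-4* and 7.60 for *vit-3*. Among the 10204 genes whose mean reached 5 CPM, the vitellogenin genes took ranks 1 and 3 to 7. This mean includes EV replicate 1, so genes low in the other libraries could enter through it. *vit-1*, for example, had 1.68 to 6.25 CPM in the other libraries. The ranks thus hold only among these genes and are a description. The gene on rank 2 was *perm-4*, an oocyte gene of the eggshell's permeability barrier, with a ratio of 7.91. *rme-2* took rank 16, with a ratio of 2.21. Over the 14801 genes tested, EV replicate 1 was the highest library in 11.5%, and lay at least 7-fold above each other library in 14 genes (0.0946%), of which 6 were the vitellogenins.
The spread did not end with EV replicate 1. The level in EV replicate 3 was 3.71 times (*vit-1*) to 12.2 times (*vit-4*) that in EV replicate 2, while the median of this ratio over the 10204 genes was 0.629. The highest EV library exceeded the lowest by a factor of 30.1 (*vit-1*) to 93.5 (*vit-4*), against a median factor of 1.88 over these genes, and only 23 of them (0.225%) had a factor as large as that of *vit-1*. For *rme-2* the factor was 7.90. In *pri-1* RNAi embryos the highest library exceeded the lowest by a factor of 1.77 (*vit-3*) to 8.80 (*vit-5*) for vitellogenins and of 1.16 for *rme-2*, against a median of 1.48.

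**Figure D2:**
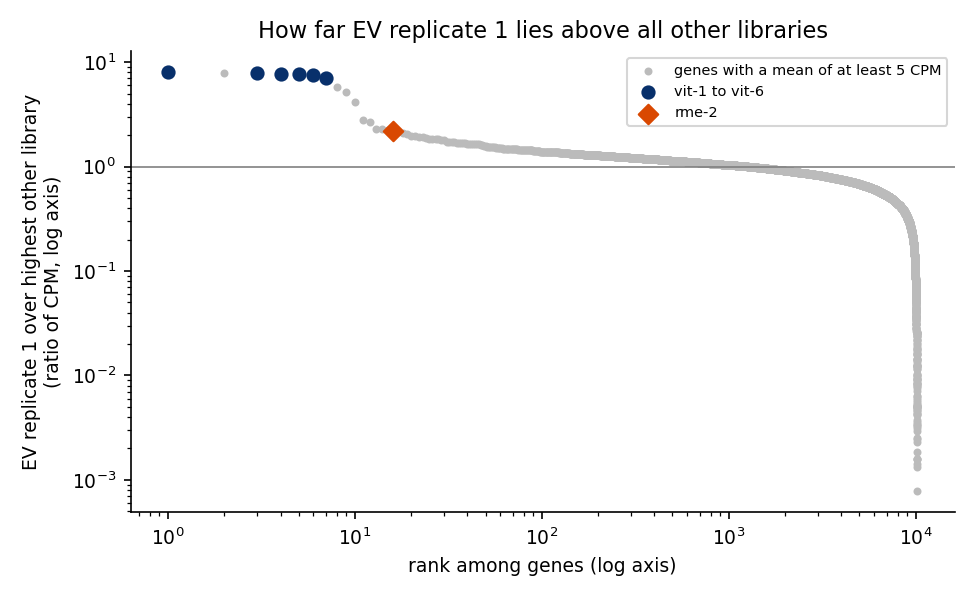
Ratio of the CPM in EV replicate 1 to the highest CPM among the 5 other libraries (log axis), in order of this ratio (log axis). The points are the 10204 genes whose mean over all libraries, EV replicate 1 included, reached 5 CPM. The 6 vitellogenin genes (dark blue) lie at ratios of 7.10 to 8.11 among the first 7 ranks, and *rme-2* (diamond) lies at 2.21 on rank 16.

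In the comparison of *pri-1* RNAi with EV embryos, 0 of the 7 members passed an adjusted p-value of 0.05 in limma on log2(CPM + 0.5), and 0 had an unadjusted p-value under 0.05. Of all 14801 genes tested, 27.3% passed, 17.3% as higher and 9.94% as lower (2564 and 1471 genes, against 2473 and 2552 with quantile normalization). The 3 libraries of one group lay apart from the 3 of the other in 45.2% of all genes and in 0 of the 7 members.
Each vitellogenin gene had a log2 fold change below 0. The values were -2.76 for *vit-4* (standard error 1.33, adjusted p = 0.167 from limma), -2.23 for *vit-2* (standard error 1.30, adjusted p = 0.248), -2.08 for *vit-5* (standard error 1.39, adjusted p = 0.313), -2.03 for *vit-6* (standard error 1.30, adjusted p = 0.292), -1.41 for *vit-1* (standard error 1.02, adjusted p = 0.347) and -0.97 for *vit-3* (standard error 1.30, adjusted p = 0.625). All their 95% intervals held 0, and that of *vit-4*, for example, reached from -5.84 to 0.32. A p-value that misses the threshold here does not show that the groups had the same level. Exact two-sided permutation tests of single genes gave p-values of 0.3 to 0.7, where 3 libraries against 3 cannot give less than 0.1. The means show the same unevenness, given here and below ± SD over n = 3 libraries, with 67.7 ± 94.8 CPM for *vit-2* in EV embryos, 6.86 ± 7.03 CPM for *vit-2* after *pri-1* RNAi, and 68.5 ± 96.7 and 7.39 ± 6.78 CPM for *vit-6*.
The result changed with single EV libraries. Without EV replicate 2, all 6 vitellogenin genes passed as lower in *pri-1* RNAi embryos, with log2 fold changes from -4.27 (*vit-4*, adjusted p = 0.00685 from limma) to -2.44 (*vit-1*, adjusted p = 0.0422), while 9.17% of all genes passed as lower and 19.3% as higher. Without EV replicate 1, none passed, with log2 fold changes from -1.28 for *vit-4* (adjusted p = 0.416 from limma) to 0.51 for *vit-3* (adjusted p = 0.753), and 2.52% of all genes passed as lower and 11.6% as higher. On recovered reads, edgeR's quasi-likelihood test called *vit-4* lower (log2 fold change -4.73, adjusted p = 0.0292), and DESeq2 called *vit-4* (-4.63, adjusted p = 0.00555) and *vit-1* (-2.72, adjusted p = 0.00777) lower. Over all genes, edgeR called 15.5% lower and DESeq2 19.2%.

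**Figure D3:**
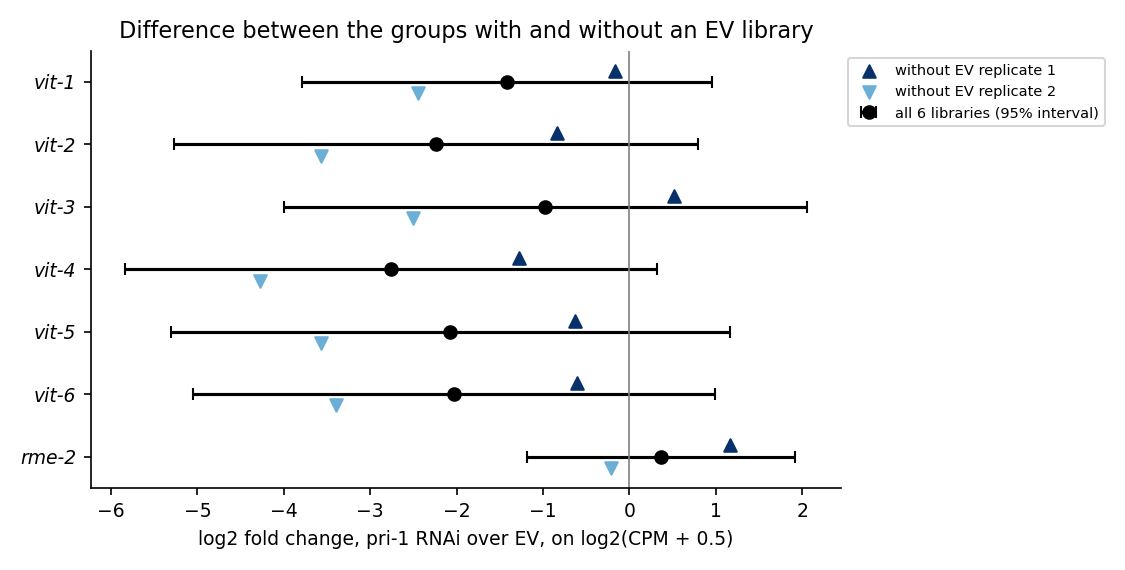
Log2 fold change of *pri-1* RNAi over EV embryos on the log2(CPM + 0.5) scale, with all 6 libraries (black points, 95% interval of limma), without EV replicate 1 (upward triangles) and without EV replicate 2 (downward triangles). Without EV replicate 2 the vitellogenin genes lie between -4.27 and -2.44, and without EV replicate 1 between -1.28 and 0.51.

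Sums do not depend on how reads were divided between similar genes. All 6 vitellogenin genes together amounted to 782, 13.0 and 103 CPM in EV replicates 1, 2 and 3 and 21.0, 16.7 and 61.3 CPM in *pri-1* RNAi replicates 1, 2 and 3, which was 0.0782% of the reads in EV replicate 1 and 0.00130% in EV replicate 2. Each *pri-1* RNAi library lay above EV replicate 2 and below EV replicate 3. The difference of the means of log2(summed CPM + 0.5) was -1.86 (exact two-sided permutation test, p = 0.4), and it was -3.32 without EV replicate 2 and -0.40 without EV replicate 1. The sum of *vit-1* and *vit-2* differed by -1.92 (exact permutation test, p = 0.4) and the sum of *vit-3*, *vit-4* and *vit-5* by -1.68 (exact permutation test, p = 0.6).
The summed vitellogenins were also set against *rme-2* in the same library, a ratio that no scaling between libraries can change. On the log2 scale this ratio was 5.31, 2.38 and 4.53 in the EV libraries and 1.46, 1.10 and 2.78 in the *pri-1* RNAi libraries. *pri-1* RNAi replicate 3 lay above EV replicate 2, and the others of its group lay below each EV library. The means differed by -2.29 (exact two-sided permutation test, p = 0.2, and 0.6 after Benjamini-Hochberg adjustment over the 6 sums and ratios tested). This difference kept its sign with each library left out, with values from -3.14 to -1.68. The ratio of *vit-6* to the 5 other vitellogenins differed by -0.29 (exact permutation test, p = 0.4), and the ratio of *vit-3*, *vit-4* and *vit-5* to *vit-1* and *vit-2* by 0.28 (exact permutation test, p = 0.7).

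*rme-2*, the receptor, had nearly the same mean in both groups, 8.88 ± 9.42 CPM in EV and 8.12 ± 0.681 CPM in *pri-1* RNAi embryos. Limma put *rme-2* at a log2 fold change of 0.36 (standard error 0.67, 95% interval from -1.19 to 1.91, adjusted p = 0.731). The value was 1.16 without EV replicate 1 (adjusted p = 0.125 from limma) and -0.22 without EV replicate 2 (adjusted p = 0.803).
Over the 6 libraries, log2(CPM + 0.5) of *rme-2* had a Pearson correlation of 0.596 to 0.843 with the vitellogenin genes, while the 15 pairs of vitellogenin genes had 0.906 to 0.998. These are descriptions over 6 libraries of 2 groups, in which EV replicate 1 is the highest point for each gene. The gene most like *rme-2* among 10197 others was *puf-5*, which encodes an RNA-binding protein of late oocytes (r = 0.994), with 17.9, 1.44 and 3.67 CPM in EV and 6.72, 5.89 and 7.89 CPM in *pri-1* RNAi embryos. *puf-5* was thus also highest in EV replicate 1 and lowest in EV replicate 2. It was followed by *xnd-1* (r = 0.986), *twf-2* (0.981), *vab-1* (0.978) and *pde-3* (0.978). The genes most like the summed vitellogenins were *Y38C1AA.9* (r = 0.963), *mbk-2* (0.951), *F56C11.5* (0.948), *maf-1* (0.944) and *F19C7.8* (0.939). Each was highest in EV replicate 1, but with far smaller differences than the vitellogenins, as *mbk-2*, which encodes a kinase of the egg-to-embryo transition, had 627, 459 and 549 CPM in EV and 507, 509 and 517 CPM in *pri-1* RNAi embryos.

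The vitellogenin genes kept fixed ratios to each other in some libraries and not in others. *vit-6* had 1.02, 0.936 and 0.990 times the CPM of *vit-2* in the EV libraries and 1.24, 1.25 and 1.01 times in the *pri-1* RNAi libraries. *vit-5* had 0.882, 0.618 and 0.955 times the CPM of *vit-2* in EV and 0.915, 0.843 and 0.966 times in *pri-1* RNAi embryos. The ratio of *vit-5* to *vit-2* overlapped between the groups, that of *vit-6* to *vit-2* did so through *pri-1* RNAi replicate 3, and both moved by less than 2-fold while the level of *vit-2* differed 50.4-fold between EV libraries.
The neighbours *vit-3* and *vit-4* behaved otherwise. *vit-3* had 1.28, 1.34 and 1.29 times the CPM of *vit-4* in EV replicates 1, 2 and 3 and 4.69, 11.6 and 3.83 times in *pri-1* RNAi replicates 1, 2 and 3. In EV embryos the ratio was nearly constant from the highest to the lowest library, and each *pri-1* RNAi library lay above them. The log2 ratio differed by 2.18 (exact two-sided permutation test, p = 0.1, which is the lower limit for groups of 3, and 0.375 after Benjamini-Hochberg adjustment over 15 pairs). The ratios between single vitellogenin genes were examined after their values had been seen, for all 15 pairs, and the groups did not overlap in 4 of them. These were *vit-3* to *vit-4*, *vit-3* to *vit-2* (0.392 to 0.707 in EV, 0.715 to 3.35 in *pri-1* RNAi embryos), *vit-4* to *vit-5* (0.475 to 0.617 and 0.193 to 0.378) and *vit-4* to *vit-6* (0.313 to 0.553 and 0.184 to 0.279). Each of these 4 pairs holds *vit-3* or *vit-4*, so they are not separate observations. By level, the groups did not overlap in 45.2% of all genes tested. *vit-3* made up 10.5% to 15.8% of all vitellogenin reads in EV and 17.4% to 39.0% in *pri-1* RNAi embryos, while *vit-4* made up 7.89% to 12.3% and 3.37% to 6.12%. As the reads of *vit-3* were fractional in each library, the part that the division of reads between similar transcripts had in these ratios was not tested.

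**Figure D4:**
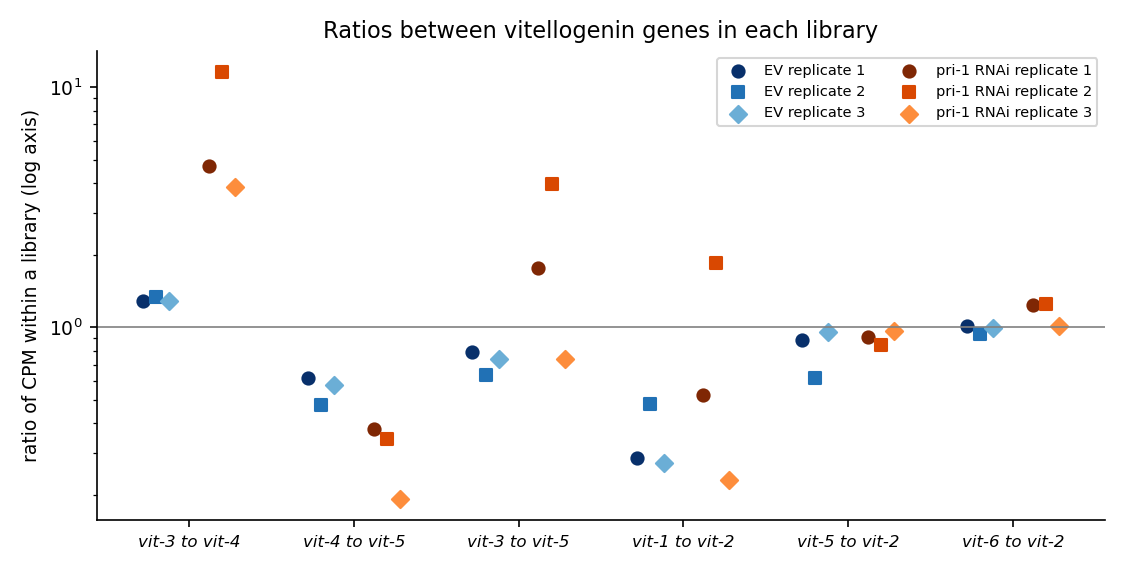
Ratio of the CPM of 6 pairs of vitellogenin genes within each library (log axis), for 3 EV (blue) and 3 *pri-1* RNAi (orange) libraries. *vit-3* to *vit-4* lies at 1.28 to 1.34 in EV and at 3.83 to 11.6 in *pri-1* RNAi embryos, while *vit-5* to *vit-2* and *vit-6* to *vit-2* lie between 0.618 and 1.25 in both groups.

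Levels of different genes were compared as CPM per kilobase of exon. In EV replicate 1, *vit-2* (35.8 CPM per kb), *vit-6* (35.5), *vit-5* (31.99), *vit-3* (25.1) and *vit-4* (19.5) lay above *vit-1* (9.95), and *rme-2* had 6.87 CPM per kb. In EV replicate 2 the order was turned, as *rme-2* had 0.870 CPM per kb and the vitellogenins had 0.208 (*vit-4*) to 0.710 (*vit-2*). In *pri-1* RNAi embryos *rme-2* had the highest mean, 2.83 ± 0.237 CPM per kb. It was followed by *vit-3* with 1.57 ± 0.517, *vit-6* with 1.46 ± 1.34, *vit-2* with 1.39 ± 1.43, *vit-5* with 1.33 ± 1.42, *vit-1* with 0.590 ± 0.179 and *vit-4* with 0.313 ± 0.230. From *vit-3* to *vit-1*, neighbours in this order lay within 1 SD of each other for at least 1 gene of the pair, while *rme-2* and *vit-3*, and *vit-1* and *vit-4*, lay further apart than the SD of either. The SD of *vit-2*, *vit-5* and *vit-6* came mainly from *pri-1* RNAi replicate 3, with 3.02, 2.96 and 2.98 CPM per kb.

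Oocyte genes were set beside the vitellogenins, since *rme-2* is transcribed in oocytes. Of 24 oocyte genes, 14 were highest in EV replicate 1, beside 11.5% of all genes tested. The EV order of the vitellogenins, with replicate 1 above replicate 3 and replicate 3 above replicate 2, was found in 18 of them. Of all genes tested, 9.97% had this order. The largest ratios of EV replicate 1 to the next library, named after their values were seen, were in *perm-4*, *cpg-2* (5.81) and *perm-2* (5.50), which all encode parts of the eggshell. *cpg-2* had 46.8, 2.59 and 7.48 CPM in EV and 7.32, 6.21 and 8.05 CPM in *pri-1* RNAi embryos. The summed level of the list was 593, 223 and 266 CPM in EV and 657, 468 and 607 CPM in *pri-1* RNAi embryos. *mex-3* made up a large part of the *pri-1* RNAi sums, and without it, a sum added after the values were seen, the other 23 genes had 549, 192 and 237 CPM in EV and 424, 315 and 374 CPM in *pri-1* RNAi embryos. EV replicate 1 was then the highest library, whereas with *mex-3* it was *pri-1* RNAi replicate 1. In either sum each *pri-1* RNAi library lay above EV replicate 3, while for the summed vitellogenins each lay below it.
In limma, 2 of the 24 oocyte genes were higher in *pri-1* RNAi embryos, beside 17.3% of all genes. Of the list, 0 were lower, beside 9.94% of all genes, and 22 did not pass. The number of oocyte genes called higher was 1 without any 1 library other than EV replicate 1 and with no filter on low values. It was 4 with trimmed-mean scaling or median centring. Over all genes, 1437 to 2853 were higher with 1 library left out and 3810 with no filter, which tested more genes. With trimmed-mean scaling 2731 of all genes were higher and with median centring 3212, against 2564 in the main fit. *mex-3*, which encodes an RNA-binding protein of the early embryo, rose from 34.7 ± 7.998 to 206 ± 45.9 CPM (log2 fold change 2.55, adjusted p = 0.000911). *oma-1*, which encodes a maturation factor of the oocyte, rose from 5.64 ± 4.79 to 16.8 ± 3.86 CPM (log2 fold change 1.73, adjusted p = 0.0494). *mei-1*, which encodes a microtubule-severing subunit of the meiotic spindle, had 102 ± 4.47 and 109 ± 9.10 CPM. The median log2 fold change of the list was 0.54, beside -0.01 over all genes tested and -2.05 over the 6 vitellogenins. Without EV replicate 1, 6 oocyte genes were higher, 0 were lower and the median was 1.17, while the median of the vitellogenins was -0.62 and that of all genes 0.04. In that fit 11.6% of all genes were higher and 2.52% lower.

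Markers of other tissues were set beside the vitellogenins in the same way. Of 16 genes of the intestine, many of which the embryonic gut also expresses, 2 were highest in EV replicate 1 and the summed level was 3579, 2517 and 4674 CPM in EV and 1630, 3093 and 2280 CPM in *pri-1* RNAi embryos. In limma, 3 were lower in *pri-1* RNAi embryos, 0 were higher and 13 did not pass, beside 9.94% of all genes lower and 17.3% higher. The 3, named after their values were seen, were *pept-1*, a peptide transporter gene (54.5 ± 15.4 and 10.8 ± 2.65 CPM in EV and *pri-1* RNAi embryos), *mtl-2*, a metallothionein gene (4.90 ± 0.605 and 1.65 ± 0.296 CPM), and *pho-1*, an acid phosphatase gene (28.1 ± 14.7 and 7.23 ± 2.52 CPM). The number lower was 1 when EV replicate 1 or replicate 1 or 3 of *pri-1* RNAi was left out, and was 5 when replicate 2 of *pri-1* RNAi was left out. Over all genes, these fits called 373, 465, 273 and 1121 lower in this order, against 1471 with all libraries. Neither of the genes with the highest levels passed. Limma gave a log2 fold change of -1.86 for *asp-1* (adjusted p = 0.0507), close to the threshold, and -0.17 for *act-5* (adjusted p = 0.809). *asp-1*, a gut protease gene, had 1130, 593 and 1923 CPM in EV and 175, 685 and 222 CPM in *pri-1* RNAi embryos, and *act-5*, the actin gene of the gut's microvilli, had 698, 406 and 996 CPM and 344, 826 and 701 CPM. EV replicate 3 and not EV replicate 1 was the highest library for both.
Of 5 collagen and cuticle genes of the adult, 2 were highest in EV replicate 1, with a summed level of 10.3, 6.13 and 3.82 CPM in EV and 6.61, 4.70 and 4.59 CPM in *pri-1* RNAi embryos. *col-19*, the collagen gene that defines the adult hypodermis, had 7.23, 3.85 and 2.75 CPM in EV and 3.08, 2.10 and 1.98 CPM in *pri-1* RNAi embryos, and thus was highest in EV replicate 1, by a factor of 1.88 over the next library. It made up 7.23 of the 10.3 CPM of the list in EV replicate 1. *col-62* was also highest there, while *col-7*, *bli-1* and *bli-2* were each highest in a *pri-1* RNAi library. None of the 5 was at 0 throughout, and 0 of the 4 tested passed in limma, with 1 at an unadjusted p-value under 0.05.
Of 16 sperm genes, 3 were highest in EV replicate 1, and the summed level was 4.75, 4.02 and 2.44 CPM in EV and 37.7, 17.5 and 26.2 CPM in *pri-1* RNAi embryos. Of the 5 sperm genes tested, limma called 4 higher and 0 lower, against 17.3% of all genes higher. *fer-1* and *spe-41*, named after their values were seen, had 22.0 and 6.60 CPM in *pri-1* RNAi replicate 1, most of that sum. The listed *msp* genes were too low to be tested. In EV and *pri-1* RNAi embryos they had 0.437 ± 0.0222 and 0.258 ± 0.0732 CPM (*msp-38*), 0.279 ± 0.312 and 0.263 ± 0.0866 (*msp-31*), 0.0760 ± 0.0660 and 0.0582 ± 0.0202 (*msp-3*), and 0.187 ± 0.0713 and 0.466 ± 0.125 (*msp-76*). Of 8 larval and molting genes, 2 were highest in EV replicate 1. Limma called 2 of them higher and 4 lower, beside 17.3% and 9.94% of all genes. Their summed level was 1379, 1417.5 and 1212 CPM in EV and 626, 695 and 565 CPM in *pri-1* RNAi embryos. With 1 library left out, 1 to 3 of these genes were called higher and 1 to 5 lower, with 1 and 1 without EV replicate 1. Over all genes, 1437 to 2853 were then called higher and 273 to 2993 lower, with 1710 and 373 without EV replicate 1. EV replicate 1, the highest library of the vitellogenins, was also the highest in 11.5% of all genes tested. It was the highest of 14 of 24 oocyte, 2 of 5 adult cuticle, 2 of 16 intestine, 3 of 16 sperm and 2 of 8 larval and molting genes. The EV order of the vitellogenins was found in 18 oocyte, 0 adult cuticle, 2 intestine, 3 sperm and 2 larval and molting genes, beside 9.97% of all genes. The part of any of these genes in the result was not tested. In such bulk samples, more cells of a type and more RNA per cell cannot be told apart.

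**Figure D5:**
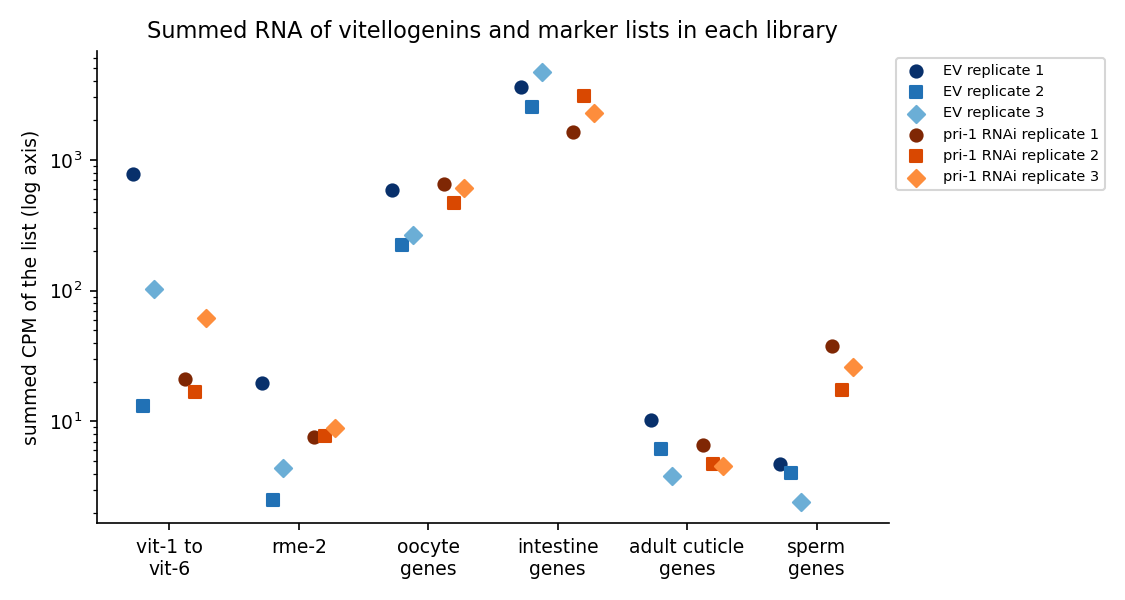
Summed CPM (log axis) of the 6 vitellogenins, of *rme-2* and of the lists of 24 oocyte, 16 intestine, 5 adult cuticle and 16 sperm genes in each of the 3 EV (blue) and 3 *pri-1* RNAi (orange) libraries. The vitellogenins span 13.0 to 782 CPM between EV libraries, and the oocyte genes span 223 to 593 CPM.

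Of 12 genes known to act on yolk production, limma called 2 higher and 1 lower after *pri-1* RNAi, and 9 did not pass. These shares of the list are close to the 17.3% and 9.94% of all genes. *mab-3*, which encodes a transcription factor that represses vitellogenin genes in the male intestine, rose from 0.403 ± 0.0803 to 4.56 ± 1.37 CPM (log2 fold change 2.45, standard error 0.30, adjusted p = 0.00158). *lin-29*, a zinc finger gene of the switch from larva to adult, rose from 1.08 ± 0.367 to 5.05 ± 1.17 CPM (log2 fold change 1.82, standard error 0.33, adjusted p = 0.00685). *dsc-4*, which encodes a microsomal triglyceride transfer protein that loads lipid onto lipoproteins, fell from 91.3 ± 18.8 to 35.6 ± 14.5 CPM (log2 fold change -1.40, standard error 0.33, adjusted p = 0.0180). For *dsc-4* the call was lost without EV replicate 1 (log2 fold change -1.29, adjusted p = 0.0827 from limma).
The activators *unc-62*, *ceh-60* and *elt-2* of vitellogenin genes in the adult intestine, named after their values were seen, did not pass. Limma gave a log2 fold change of 0.24 for *unc-62* (adjusted p = 0.561) and -0.31 for *ceh-60* (adjusted p = 0.695), which both encode homeodomain proteins, and -0.24 for *elt-2* (adjusted p = 0.681), the gene of the main GATA factor of the gut. *ceh-60* had 3.35, 6.47 and 1.35 CPM in EV, so that EV replicate 2, which was low in vitellogenin RNA, was its highest library. EV replicate 2 was the highest library in 38.7% of all genes tested, so this is a common pattern. Among the other genes of the list that did not pass, those with the smallest p-values were named whatever their effect on yolk. *pqm-1* had 0.65 (adjusted p = 0.0934 from limma), *daf-16*, the FOXO factor gene downstream of insulin signalling, had -0.54 (adjusted p = 0.124), and *rict-1*, a subunit gene of the TORC2 kinase complex, had 0.72 (adjusted p = 0.0786). The median log2 fold change of the 12 genes was 0.22.

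Yolk bound to RME-2 enters the oocyte in clathrin-coated vesicles and is sorted in endosomes, from which the receptor returns to the surface. Of 20 genes of this route, 4 were higher and 1 was lower in *pri-1* RNAi embryos in limma, and 15 did not pass, beside 17.3% and 9.94% of all genes. *rme-1*, which encodes the ATPase that drives receptor recycling, had 248, 203 and 278 CPM in EV and 622, 626 and 760.0 CPM in *pri-1* RNAi embryos. Its groups lay far apart, and limma put the log2 fold change at 1.47 ± 0.21 (standard error) with an adjusted p-value of 0.00257. *snx-1*, a sorting nexin gene of the retromer, rose from 66.7 ± 9.38 to 135.5 ± 20.0 CPM (log2 fold change 1.02, adjusted p = 0.0133). *dyn-1*, the dynamin gene, rose from 171 ± 52.7 to 321 ± 34.4 CPM (log2 fold change 0.96, adjusted p = 0.0380), and *rme-6*, which encodes an activator of RAB-5, rose from 46.3 ± 7.10 to 89.8 ± 28.3 CPM (log2 fold change 0.91, adjusted p = 0.0495). *rab-35*, which encodes a small GTPase of yolk receptor recycling, fell from 107 ± 8.93 to 58.2 ± 8.97 CPM (log2 fold change -0.89, adjusted p = 0.0201). Without EV replicate 1, *rme-1* was the only one of these 5 that passed in limma (log2 fold change 1.49, adjusted p = 0.0181). In that fit 11.6% of all genes were higher and 2.52% lower. With trimmed-mean scaling, 2 genes of the route were higher and 2 were lower, beside 2731 and 2170 of all 14801 genes. The median log2 fold change of the 20 genes was 0.33. These genes act in most cells and not only in yolk uptake.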

How the data were processed

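The authors trimmed 150 bp paired-end reads with Trimmomatic 0.36, assigned them with Salmon 1.4.0 to the Ensembl transcriptome of WBcel235, added up transcripts per gene through tximport and deposited CPM, which sum to 1000000 per library. Among values up to 20 reads, 93.4% to 94.7% were whole numbers (within 0.01 read) of the CPM that 1 read is worth, which gave the read totals. A level of 3 reads was 0.0185 to 0.0244 CPM. The main test was limma 3.58.1 (R 4.3.3; lmFit, eBayes with a trend) on log2(CPM + 0.5), a scale that understates changes of low genes. It covered the 14801 genes that reached 0.5 CPM in 3 or more libraries, with Benjamini-Hochberg adjustment over all of them and a threshold of 0.05. Sums and ratios had an exact permutation test. Alternatives were pseudocounts (0.1 and 1), filters, scalings, variance models, replicate blocks, each library left out, and edgeR 4.0.16 and DESeq2 1.42.0 on rounded recovered reads (over 10 reads in 3 or more libraries). Members and lists were chosen with earlier results of these data known. The rule for names took all members, the genes of the yolk lists past the threshold with the next 3 by p-value, up to 4 marker genes of the highest mean CPM per list, and the 5 genes most alike in pattern. Exon lengths (merged exons) and coordinates come from Ensembl release 115. Python 3.11.15, numpy 2.4.6, pandas 2.3.3 and matplotlib 3.10.9 were used.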

Additional observations from a re-analysis of the deposited data

How the results depend on the processing

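No member passed as higher under any alternative run. All 6 vitellogenin genes passed as lower with the number in the labels' library names (1, 2 and 3 for EV, 1, 3 and 4 for *pri-1* RNAi) as block. In this fit EV replicate 2 and *pri-1* RNAi replicate 3 have no partner and drop out of the difference. It called 1917 of all 14801 genes lower. EdgeR called 1 member lower and DESeq2 2. With 1 library left out the number of members called lower was 0 to 6, with 6 only without EV replicate 2, and each other alternative called 0. *vit-3* turned to 0.51 without EV replicate 1 and had -2.51 without EV replicate 2. *rme-2* turned to -0.28 under the library-name block, to -0.22 without EV replicate 2, to -0.29 with edgeR and to -0.22 with DESeq2, and was -0.22 to 1.16 with 1 library left out. The ratio of *vit-3*, *vit-4* and *vit-5* to *vit-1* and *vit-2* turned to -0.038 without EV replicate 2, the lowest of its values up to 0.45 with 1 library left out. The causes were not tested. Over all genes, 1059 were higher under the filter on mean CPM, 4159 under the library-name block and 4255 with DESeq2, against 2564, and 1437 to 2853 with 1 library left out. Lower were 2552 with quantile normalization, 2760 with edgeR and 3414 with DESeq2, against 1471, and 273 to 2993 with 1 library left out. The filter on mean CPM tested fewer genes than the main fit. EdgeR tested 17784 and DESeq2 17755, against 14801, so these counts do not cover the same genes. The deviations of same-numbered replicates correlated at 0.0402, -0.323 and 0.458 across genes, so that not every pair passed the minimum of 0.1 set for a pairing. The replicate block by these numbers called 0 members, 2110 genes as higher and 1043 as lower, and its difference for the sum of the vitellogenins, -1.86, equals the unblocked one by construction. Median centring raised the median log2 fold change of all genes from -0.01 to 0.20, and under it the vitellogenins had -2.55 to -0.76 and *rme-2* 0.57.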
